A study of Mus musculus with 46 samples.

Results

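The genes described here are 42 mouse genes of DNA replication and S phase, listed by name, a list drawn up with earlier results of these data known. They were sought by gene symbol in 3 tables of expression: sorted brain myeloid cells after lipopolysaccharide (LPS), sorted cells after GLOBAL repopulation, and subventricular zone (SVZ) tissue. All 42 were among the 15285 genes listed in the LPS table and all 42 were among the 12684 tested, a gene being tested when its FPKM (fragments per kilobase of gene, scaled to the depth of the library) was at least 1 in at least 3 libraries. The GLOBAL table listed 19930 genes and all 42 members, of which 40 were among the 16651 tested, Cdc6 and Ccne2 being below the limit. The SVZ table listed 15695 genes and 41 members, without Cdc6, and 34 members were among the 14151 tested. Orc1, Mcm10, Pole, Pole2, Tk1, Chaf1b and Hells were below the limit there.

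A cell that enters S phase first loads the ring-shaped MCM helicase onto replication origins, a step called licensing that needs the origin recognition complex, Cdc6 and Cdt1 and is held back by geminin. Cdc45 and the GINS complex then switch the helicase on, primase and the DNA polymerases copy both strands, the sliding clamp PCNA holds the polymerases in place, and Okazaki fragments are trimmed and sealed. Nucleotide supply, new chromatin and DNA methylation must keep pace, and many of these genes are switched on together by E2F transcription factors when cyclin E activity commits a cell to S phase. Microglia are the resident macrophages of the brain. They rarely divide in the healthy adult and can proliferate after injury, inflammation or depletion.

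The 46 libraries came from C57BL/6 mice without a transgene, males per the study's methods. The methods give an age of 1.5 months unless stated, and the description of the LPS experiment 2 months. A caption also calls the mice treated with vehicle or PLX3397 for GLOBAL and WM repopulation 2 months old, which puts this age at the treatment. PLX3397, an inhibitor of the receptor CSF1R on which microglia depend, was given in chow to deplete them, and mice of the control groups were not depleted. Control (CON) cells were compared with cells of white matter (WM) repopulating mice, which had 14 days of PLX3397 and 28 days without it. Mice of both origins received no LPS (0 hr), or LPS at 0.33 mg/kg into the abdomen 6 hr or 24 hr before CD11b+CD45int cells of whole brain hemispheres were sorted. The groups held 3 CON 0 hr, 5 CON 6 hr, 4 CON 24 hr and 4 WM libraries at each time. The GLOBAL table held 4 control libraries and 3 from mice that had 7 days of PLX3397 and 28 days of recovery. The SVZ table held 5 libraries each of microdissected tissue from control mice, mice after 14 days of PLX3397, and mice after 14 days of PLX3397 and 5 days of recovery. Per the study's statistics section n counts mice, while the labels used here tie no library to a mouse. Where libraries did not come from separate mice, a p-value measures a spread that may be technical.

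The libraries held 5.24 to 10.4 M reads in the LPS table, 2.21 to 5.42 M in the GLOBAL table and 4.57 to 10.6 M in the SVZ table, as recovered from the steps between low FPKM values. The GLOBAL depths are less certain, since 99.0% of the low genes there gave a whole gene length, and all did in the other tables. The 8 microglia markers checked, among them P2ry12, Tmem119 and Csf1r, summed to 11237 to 29313 FPKM in the LPS table. The 8 neutrophil markers, among them S100a8 and Ly6g, also reached 431.3 to 15278 FPKM there, although the gate was set for cells of intermediate CD45. In sorted populations and tissue, more dividing cells and more transcript per cell cannot be told apart.

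Before LPS the levels of the set as a whole overlapped between the origins. The FPKM of the 42 members summed to 292.6 to 357.8 in the 3 CON 0 hr libraries and to 304.3 to 363.7 in the 4 WM 0 hr libraries. FPKM is per length, so genes can be ranked: the highest CON 0 hr means were those of Slbp, which encodes the stem-loop binding protein of histone mRNAs, at 64.6 FPKM, and Pcna, at 43.9 FPKM. At the low end the mean was 0.256 FPKM for Pole, the catalytic subunit of DNA polymerase epsilon, and 0.269 FPKM for the licensing factor Cdc6. Of the 42 members, 1 was called higher in WM than in CON cells at 0 hr (limma, Benjamini-Hochberg adjusted p threshold of 0.05), where 0.717% of all genes tested were called higher. That gene was Gmnn, which encodes geminin, the inhibitor of Cdt1. Gmnn measured 2.89, 2.68 and 0.797 FPKM in CON 0 hr cells and 4.30, 5.51, 5.26 and 10.5 FPKM in WM 0 hr cells, without overlap, and its log2 difference was 1.26 (SE 0.305, adjusted p = 0.0398). This call was lost in 7 of 14 alternative analyses, among them the one with only these groups fitted. The median log2 difference of the 42 members was 0.03, against 0.01 over all genes.

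**Figure D1:**
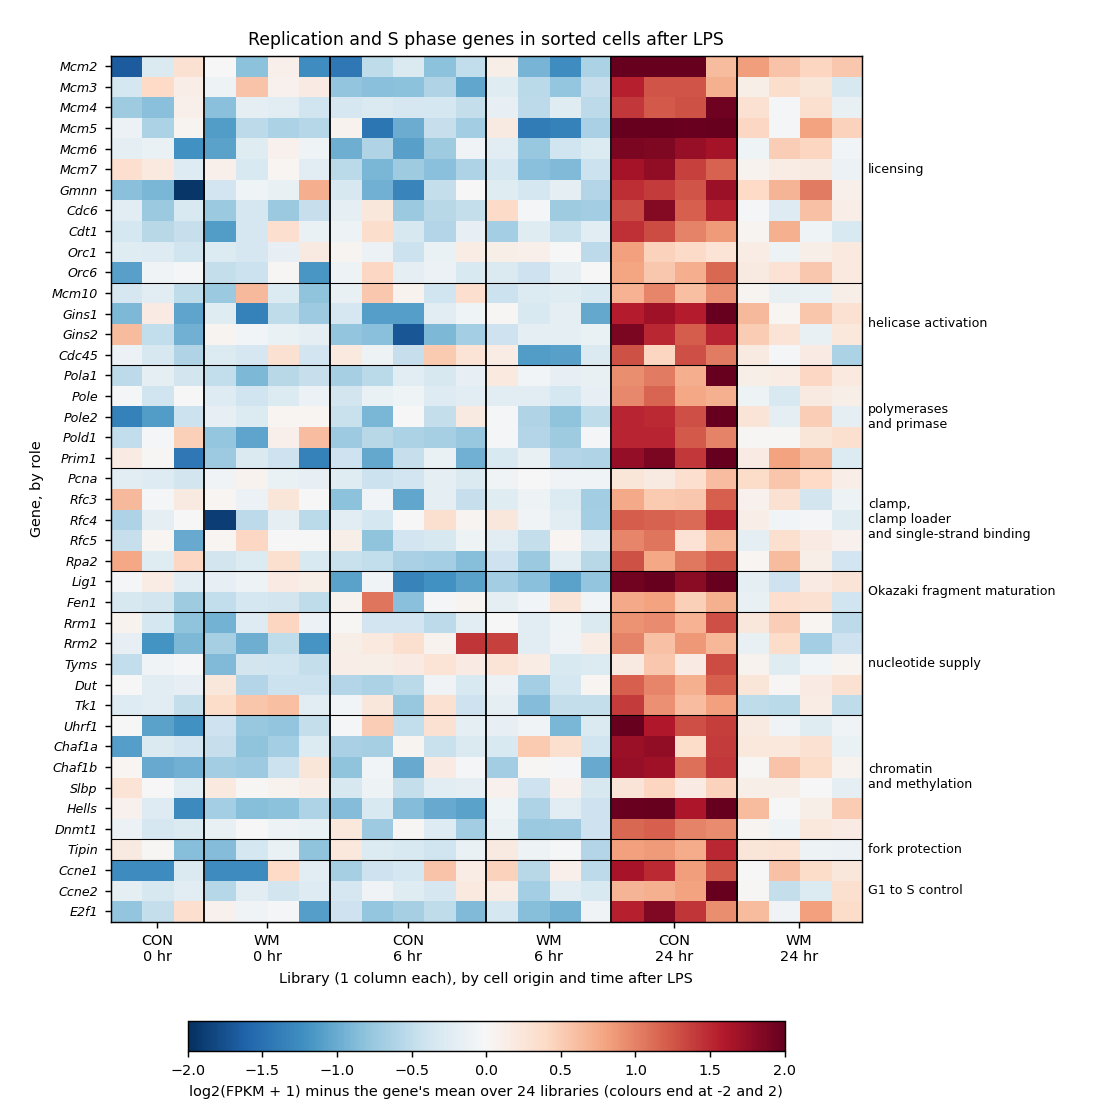
Expression of the 42 replication and S phase genes in the 24 sorted-cell libraries. Each row is a gene, ordered by role, each column a library, and colour is log2(FPKM + 1) minus the gene's mean over the 24 libraries. The 4 CON 24 hr columns are high in most rows, while the 4 WM 24 hr columns are closer to the 0 hr and 6 hr columns.

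At 6 hr after LPS few replication genes had risen and some had fallen. In CON cells 2 of 42 members were higher and 6 were lower than at 0 hr, while 21.4% of all genes were called higher and 21.1% lower. In WM cells 2 members were higher and 4 were lower, against 19.3% and 19.5% of all genes. The member sum was 246.9 to 330.6 FPKM in CON 6 hr and 289.4 to 353.9 FPKM in WM 6 hr libraries, so it overlapped the 0 hr range in both origins.

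The genes that fell at 6 hr were of several roles. Lig1, the ligase that seals Okazaki fragments, measured 4.44, 5.16 and 3.81 FPKM in CON 0 hr cells and 1.63, 4.27, 1.18, 1.39 and 1.63 FPKM at 6 hr. In WM cells Lig1 measured 3.97, 4.18, 5.22 and 4.995 FPKM at 0 hr and 2.44, 2.10, 1.65 and 2.20 FPKM at 6 hr. The WM groups did not overlap, while in CON cells 1 library at 6 hr lay within the 0 hr range. The log2 difference of Lig1 was -0.93 in CON (SE 0.233, adjusted p = 0.00244) and -0.85 in WM cells (SE 0.226, adjusted p = 0.00429). The helicase subunits Mcm3 and Mcm7 also fell in both origins. For Mcm3 the log2 difference was -0.88 in CON (adjusted p = 0.000978) and -0.68 in WM cells (adjusted p = 0.00671), and for Mcm7 it was -0.82 (adjusted p = 0.00063) and -0.53 (adjusted p = 0.0177). Rpa2, a subunit of the single-strand binding protein RPA, the clamp loader gene Rfc3 and the GINS subunit Gins2 fell in CON cells, by 0.94, 0.78 and 0.71 on the log2 scale. The Gins2 call was lost in 4 of 15 alternative analyses, with a weakest log2 difference of -0.26. Without CON 0 hr replicate 1 the limma adjusted p was 0.415 for Gins2 and 0.0608 for Rfc3. The thymidine kinase gene Tk1 fell by 0.82 on the log2 scale in WM cells. The genes that rose at 6 hr were Rrm2, the regulated subunit of ribonucleotide reductase, in both origins (log2 difference 1.18 in CON and 1.14 in WM cells), Uhrf1 in CON cells (0.77) and Pola1 in WM cells (0.56). No member differed between the origins at 6 hr, where 0.323% of all genes were called by limma. At an unadjusted p under 0.05 there were 3 members, against 9.18% of all genes, the lowest adjusted p among them being 0.233. For the difference between the origins in the change from 0 to 6 hr, 0 members were called by limma, against 0.0237% of all genes, and 4 members had an unadjusted p under 0.05, as did 7.2% of all genes. The 6 hr samples also had the highest sums of the 6 monocyte markers, 1211 to 3373 FPKM, against 115.6 to 431.7 FPKM at 0 hr. Of the 8 neutrophil markers 2 were called lower at 6 hr in CON cells (median log2 difference -1.48) and 6 in WM cells (-2.25), and of the 8 microglia markers 7 were called lower in each origin. The monocyte sums at 0 and 6 hr did not overlap, so a fit with this sum as a covariate can hardly separate it from time. With the monocyte sum as a covariate 4 members were called in CON cells, all among the 8 above. In WM cells 3 were called, of which Mcm7 alone was among the 6 above and Rpa2 and Cdc45 were new, both lower. The Lig1 difference was then -0.48 in CON (adjusted p = 0.468) and -0.42 in WM cells (adjusted p = 0.535), and that of Rrm2 -0.18 and -0.17. In that fit the calls of Gins2 and Uhrf1 in CON cells and of Mcm3, Tk1 and Pola1 in WM cells were lost as well. With the neutrophil sum as a covariate the WM calls of Mcm7 (adjusted p = 0.0850), of Tk1 (adjusted p = 0.0880) and of Pola1 were lost.

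At 24 hr after LPS nearly the whole set was high in CON cells. Of the 42 members, 40 were called higher than at 0 hr and 0 lower, where 12.1% of all genes were called higher. In 40 of 42 members every CON 24 hr library lay above every CON 0 hr library, which was so for 15.8% of all genes tested. The fold of the group means had a median of 4.04, with 37 members over 2-fold and 21 over 4-fold, against 10.6% and 3.76% of all genes tested. It ran from 1.24 to 11.9 in the members other than Ccne1 and Cdc6, which have CON 0 hr libraries at 0. The 2 members not called were Slbp and Rfc3. Against 6 hr, 40 members were again called higher, where 15% of all genes were. The 2 not called in that comparison were Rrm2 and Tyms. The comparisons with 0 hr and 6 hr share the CON 24 hr libraries. The member sum was 727.1 to 916.5 FPKM at 24 hr, above each earlier library of either origin.

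WM repopulating cells had a much smaller rise at 24 hr. Of the 42 members, 7 were called higher than at 0 hr and 0 lower, where 10.5% of all genes were called higher, and 14 members had every WM 24 hr library above every WM 0 hr library, against 13.2% of all genes. The median fold of the group means was 1.52, with 11 members over 2-fold, against 7.51% of all genes tested. Against WM 6 hr, 9 members were called higher, where 8.19% of all genes were. That count was 3 to 9 with 1 library left out, the lowest without WM 24 hr replicate 3, and 3 and 2 with the neutrophil and monocyte covariates. Against 0 hr it was 6 to 11, the highest without WM 0 hr replicate 3. With the neutrophil covariate 9 members were higher than at 0 hr, Rfc4 and Cdc6 being new, and with the monocyte covariate 7 were. In both of these fits Tk1 was called lower, with log2 differences of -0.65 (adjusted p = 0.0459) and -0.73 (adjusted p = 0.0386). The member sum was 357.8 to 467.9 FPKM at 24 hr, so only its lower end overlapped the 0 hr range of 304.3 to 363.7 FPKM.

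At 24 hr 30 of the 42 members were called lower in WM than in CON cells and 0 higher, where 2.29% of all genes were called lower. The log2 differences ran from -2.14 to 0.02 with a median of -1.07, against a median of 0.02 over all genes tested. In 39 of 42 members every CON 24 hr library lay above every WM 24 hr library, against 6.32% of all genes. The difference between the origins in the change from 0 to 24 hr was tested as an interaction. It was negative in all 42 members, with a median of -1.21 on the log2 scale, and 32 had an unadjusted p under 0.05, while 49.1% of all genes were not positive and 8.71% had an unadjusted p under 0.05. After adjustment over all genes 4 members were called, Pole2, Lig1, Gmnn and Tk1, where 0.0710% of all genes were called lower. With 1 library left out 2 to 6 members were called. The comparison at 24 hr, the rise in CON cells and the interaction share the CON 24 hr libraries.

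**Figure D2:**
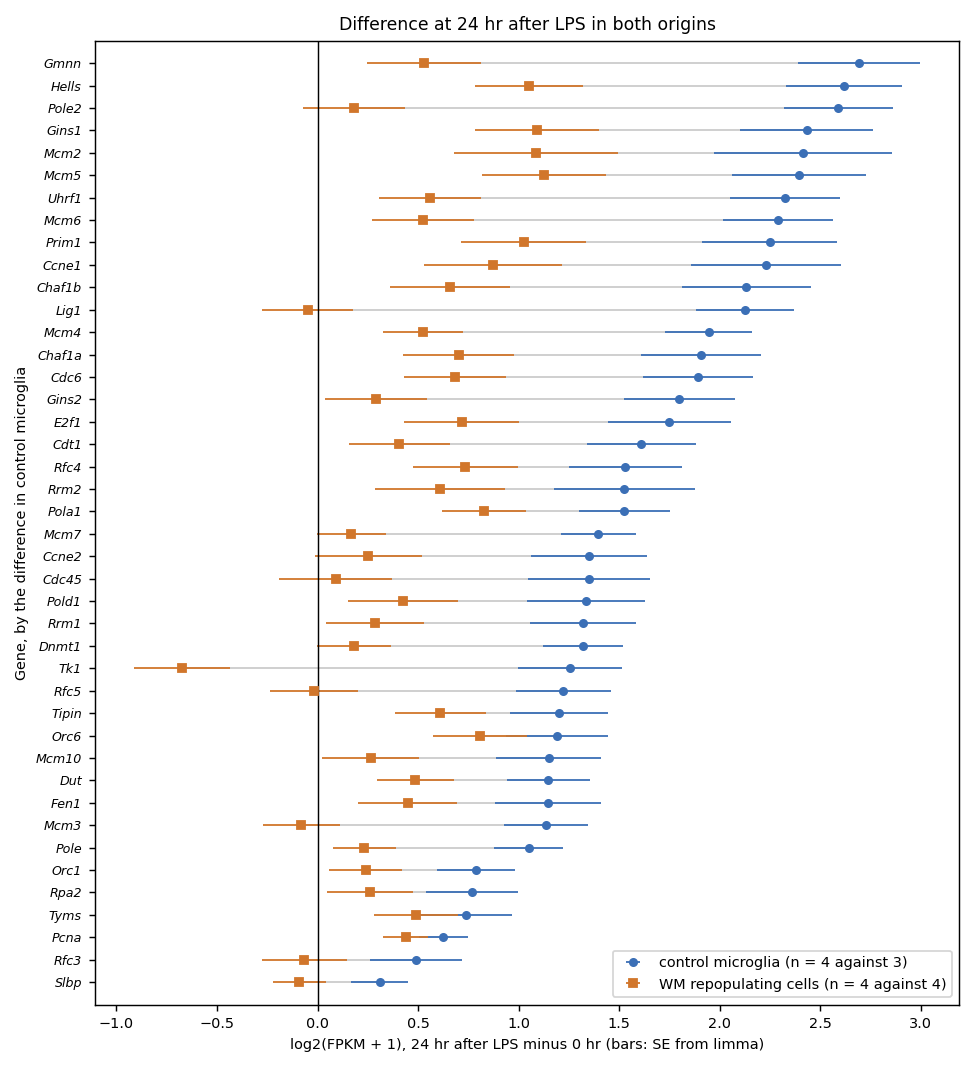
Log2 difference of each of the 42 genes between 24 hr and 0 hr after LPS, in CON cells (circles, n = 4 against 3) and WM cells (squares, n = 4 against 4), with bars of 1 SE. The CON point is to the right of the WM point in all 42 genes.

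All 11 licensing genes were higher at 24 hr than at 0 hr in CON cells, 2 of 11 in WM cells, and 7 of 11 were lower in WM than in CON cells at 24 hr. Mcm5, a subunit of the MCM helicase, measured 5.09, 3.23 and 5.83 FPKM in CON cells at 0 hr, 5.90, 1.42, 2.31, 3.79 and 3.07 FPKM at 6 hr and 34.1, 30.5, 24.8 and 25.4 FPKM at 24 hr. In WM cells Mcm5 measured 2.02, 3.56, 3.23 and 3.45 FPKM at 0 hr, 6.48, 1.49, 1.57 and 3.20 FPKM at 6 hr and 7.77, 5.43, 10.5 and 8.05 FPKM at 24 hr. The 24 hr libraries were the highest in CON cells without overlap and were also above all WM 0 hr libraries, but every WM 24 hr library was below every CON 24 hr library. The log2 difference from 0 to 24 hr was 2.40 in CON (SE 0.332, adjusted p = 1.58e-05) and 1.13 in WM cells (SE 0.307, adjusted p = 0.0117), and between the origins at 24 hr it was -1.75 (SE 0.307, adjusted p = 0.00161).

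Mcm6, another helicase subunit, measured 11.2, 11.7 and 4.99 FPKM at 0 hr, 6.00, 8.15, 5.50, 7.45 and 12.1 FPKM at 6 hr and 50.2, 49.2, 45.3 and 42.7 FPKM at 24 hr in CON cells. In WM cells Mcm6 measured 5.56, 10.6, 13.6 and 12.03 FPKM at 0 hr, 10.8, 7.13, 9.51 and 10.4 FPKM at 6 hr and 11.99, 18.3, 17.7 and 12.4 FPKM at 24 hr. The WM 24 hr libraries overlapped those at 0 hr, whereas the CON 24 hr libraries stood apart from all others. Mcm6 rose by a log2 difference of 2.29 in CON cells (SE 0.275, adjusted p = 2.62e-06), and was lower in WM than in CON cells at 24 hr by -1.59 (SE 0.254, adjusted p = 0.000754). Mcm7 measured 9.19, 8.24 and 5.72 FPKM in CON 0 hr cells, 4.52, 3.27, 3.90, 3.49 and 4.22 FPKM at 6 hr, and 24.5, 26.3, 19.7 and 17.2 FPKM at 24 hr. In WM cells Mcm7 measured 7.58, 5.48, 7.24 and 5.89 FPKM at 0 hr, 5.30, 3.48, 3.34 and 4.98 FPKM at 6 hr, and 7.48, 7.87, 8.07 and 6.38 FPKM at 24 hr. Mcm7 thus dipped at 6 hr in both origins, and at 24 hr its WM libraries lay within the CON 0 hr range, 2 of the 4 being above the WM 0 hr range. Mcm3 measured 16.2, 27.9 and 23.05 FPKM in CON 0 hr cells, 11.7, 11.3, 11.4, 13.5 and 9.72 FPKM at 6 hr, and 63.7, 51.2, 51.5 and 35.0 FPKM at 24 hr. In WM cells Mcm3 measured 19.4, 31.7, 22.3 and 23.7 FPKM at 0 hr, 17.6, 14.1, 11.9 and 14.9 FPKM at 6 hr, and 22.9, 27.0, 24.9 and 16.7 FPKM at 24 hr. Mcm3 was thus low at 6 hr in both origins, and its CON 24 hr libraries were above all others while its WM 24 hr libraries were not above the WM 0 hr range.

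Mcm4 measured 3.77, 3.40 and 7.42 FPKM in CON 0 hr cells and 19.9, 17.3, 17.99 and 29.1 FPKM at 24 hr, against 8.72, 6.70, 8.73 and 6.07 FPKM in WM 24 hr cells. Mcm2, whose product completes the MCM ring, measured 24.2, 19.4, 18.2 and 5.83 FPKM in CON 24 hr cells, so 1 library was far below the others and lay among the WM 24 hr values of 6.92, 5.59, 4.95 and 5.39 FPKM. Mcm2 was called higher at 24 hr in CON cells (log2 difference 2.42, SE 0.441, adjusted p = 0.000356) and was not called between the origins. Gmnn measured 18.3, 17.2, 15.7 and 21.6 FPKM in CON 24 hr cells and 8.18, 10.1, 13.2 and 6.40 FPKM in WM 24 hr cells, which overlapped the WM 0 hr range. Its log2 difference from 0 to 24 hr was 2.69 in CON cells (SE 0.305, adjusted p = 1.4e-06), the largest of the 42, and its interaction was -2.16 (SE 0.415, adjusted p = 0.0322). Gmnn was not called between the origins at 24 hr and was already higher in WM cells at 0 hr. Its interaction call was lost in most alternative analyses. The CON 24 hr mean of Cdc6 was 3.72 FPKM and the WM 24 hr mean 0.856 FPKM, a log2 difference of -1.36 (SE 0.254, adjusted p = 0.00251), a call lost with a pseudocount of 0.1 (adjusted p = 0.157). For Cdt1, which brings the helicase to the origin with Cdc6, the CON and WM 24 hr means were 20.2 and 9.43 FPKM. The origin recognition subunits differed in level, Orc6 at 19.3 and 13.2 FPKM and Orc1 at 1.26 and 0.704 FPKM, and Orc6 was called higher at 24 hr in WM cells too (log2 difference 0.81, SE 0.233, adjusted p = 0.0166).

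**Figure D3:**
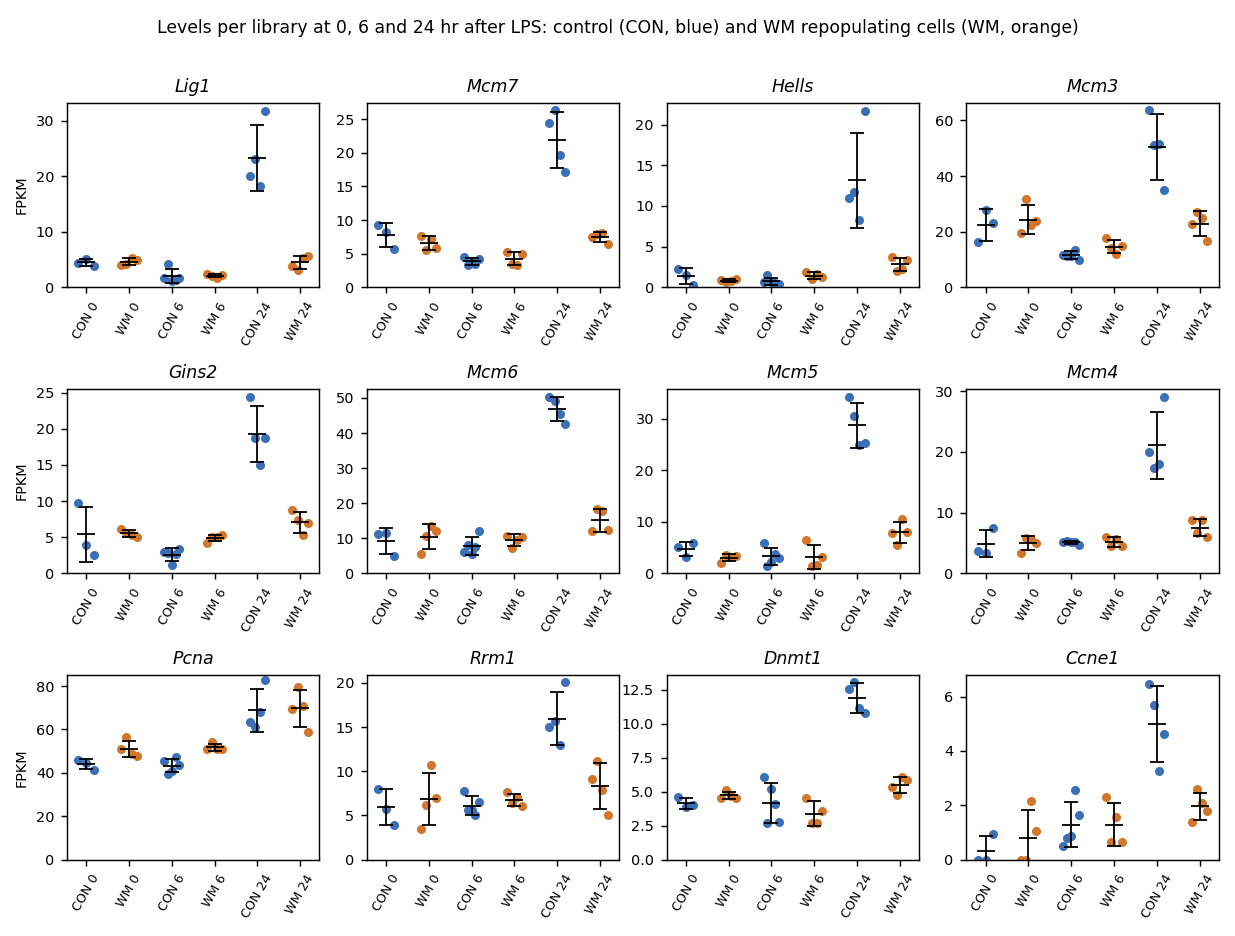
FPKM of 12 of the genes in each sorted-cell library (points) with the group mean and SD, CON groups in blue and WM groups in orange, at 0, 6 and 24 hr after LPS. In CON cells all 12 have their highest mean at 24 hr, and Pcna is the panel where the CON and WM 24 hr points lie together.

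Among the helicase activation genes all 4 were higher at 24 hr in CON cells, 1 in WM cells, and 3 were lower in WM than in CON cells at 24 hr. Gins2, a subunit of the GINS complex, measured 9.75, 3.92 and 2.55 FPKM in CON 0 hr cells and 24.4, 18.7, 14.96 and 18.8 FPKM at 24 hr, against 8.82, 7.34, 5.25 and 6.95 FPKM in WM 24 hr cells. Gins1, its partner in the complex, measured 25.2, 27.4, 25.1 and 49.1 FPKM in CON 24 hr and 12.7, 8.06, 11.9 and 9.84 FPKM in WM 24 hr cells. The ranges of both genes were apart at 24 hr. Gins1 had the largest log2 differences of this role, 2.43 in CON (SE 0.331, adjusted p = 1.29e-05) and 1.09 in WM cells (SE 0.307, adjusted p = 0.0141), and between origins it was -1.45 (SE 0.307, adjusted p = 0.00726). Cdc45, which travels with the helicase, had means of 1.35 FPKM in CON 0 hr, 5.08 FPKM in CON 24 hr and 1.86 FPKM in WM 24 hr cells. Mcm10, which helps to fire the helicase, was called in CON cells but not between the origins, with means of 2.04 FPKM in CON and 0.712 FPKM in WM cells at 24 hr.

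Every polymerase and primase gene was called in both comparisons: all 5 were higher at 24 hr in CON cells and all 5 were lower in WM than in CON cells at 24 hr, while 2 were higher at 24 hr in WM cells. Pole2, an accessory subunit of the leading-strand DNA polymerase epsilon, measured 0.351, 0.600 and 1.56 FPKM in CON 0 hr and 8.93, 8.71, 7.49 and 14.8 FPKM in CON 24 hr cells. In WM cells Pole2 measured 2.08, 1.87, 2.58 and 2.57 FPKM at 0 hr and 3.13, 2.05, 3.86 and 2.06 FPKM at 24 hr. The CON groups were far apart and the WM groups overlapped. The interaction of Pole2 was -2.41 (SE 0.373, adjusted p = 0.00739), the largest of the 42. Prim1, the catalytic subunit of primase, measured 21.9, 24.2, 17.03 and 32.1 FPKM in CON 24 hr and 6.60, 10.8, 9.56 and 4.63 FPKM in WM 24 hr cells. Prim1 and Pola1, the catalytic subunit of DNA polymerase alpha, were the pair that also rose in WM cells, by log2 differences of 1.03 (SE 0.310, adjusted p = 0.0219) and 0.83 (SE 0.209, adjusted p = 0.00675). Pold1, the catalytic subunit of DNA polymerase delta, had means of 4.79 FPKM in CON 0 hr, 13.2 FPKM in CON 24 hr and 5.28 FPKM in WM 24 hr cells, and Pole had means of 0.256, 1.60 and 0.363 FPKM.

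The sliding clamp gene Pcna had the smallest interaction at 24 hr of the 42 members, -0.19 on the log2 scale. In the study's time-course clustering Pcna is in a cluster said to respond differently at 24 hr in control and repopulating cells. That clustering was not repeated here. Pcna measured 45.8, 44.7 and 41.3 FPKM in CON 0 hr cells, 45.4, 39.5, 41.0, 47.3 and 43.6 FPKM at 6 hr and 63.3, 60.9, 68.0 and 82.9 FPKM at 24 hr. In WM cells Pcna measured 51.1, 56.3, 48.8 and 47.8 FPKM at 0 hr, 50.9, 54.1, 51.1 and 51.1 FPKM at 6 hr and 69.6, 79.6, 70.7 and 59.0 FPKM at 24 hr. The 24 hr libraries were the highest of each origin and the origins overlapped at 24 hr, as they did for Mcm2 and Rfc5. Pcna rose by a log2 difference of 0.63 in CON (SE 0.121, adjusted p = 0.000629) and 0.44 in WM cells (SE 0.112, adjusted p = 0.00743), and between the origins at 24 hr the difference was 0.02 (adjusted p = 0.941), a value that turned negative in 4 of 16 alternative analyses. Of the clamp, clamp loader and RPA genes together, 4 of 5 were higher at 24 hr in CON cells, 1 in WM cells, and 3 were lower in WM than in CON cells at 24 hr. Rpa2 measured 28.9, 13.8 and 22.4 FPKM in CON 0 hr, 41.4, 28.9, 35.3 and 39.98 FPKM in CON 24 hr and 16.9, 26.0, 18.02 and 12.4 FPKM in WM 24 hr cells. The loader subunits Rfc3, Rfc4 and Rfc5 had CON 24 hr means of 27.4, 21.7 and 14.2 FPKM and WM 24 hr means of 15.5, 8.21 and 8.53 FPKM.

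Lig1 had the largest difference between the origins at 24 hr. It measured 20.02, 23.1, 18.3 and 31.7 FPKM in CON 24 hr and 3.91, 3.15, 5.18 and 5.64 FPKM in WM 24 hr cells. The WM values overlapped those of WM cells before LPS, and the lowest CON value was more than 3 times the highest WM value. The log2 difference was -2.14 between the origins (SE 0.226, adjusted p = 9.85e-06), the CON mean being 5.21-fold that of WM cells, and the interaction was -2.18 (SE 0.333, adjusted p = 0.00739). These values rest on 547 to 681 reads of Lig1 in each CON 24 hr library and 83 to 165 reads in each WM 24 hr library. Fen1, the nuclease that trims Okazaki fragments before ligation, was higher at 24 hr in CON cells and was not called between the origins, with means of 48.2 and 30.6 FPKM at 24 hr.

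The nucleotide supply genes were all called in CON cells, 5 of 5, 0 of the 5 in WM cells by limma (3 at an unadjusted p under 0.05, of which Tk1 had a negative difference), and 3 were lower in WM than in CON cells at 24 hr. Rrm1, the large subunit of ribonucleotide reductase, measured 8.04, 5.78 and 3.94 FPKM in CON 0 hr, 7.81, 5.64, 5.61, 5.02 and 6.50 FPKM in CON 6 hr and 15.1, 15.7, 12.9 and 20.1 FPKM in CON 24 hr cells. In WM cells Rrm1 measured 3.49, 6.22, 10.7 and 6.94 FPKM at 0 hr, 7.60, 6.37, 7.11 and 6.09 FPKM at 6 hr and 9.16, 11.2, 7.92 and 4.995 FPKM at 24 hr. Its WM libraries overlapped at all 3 times, and its CON 24 hr libraries were above all of them. Tk1, which salvages thymidine, measured 4.13, 4.24 and 3.41 FPKM in CON 0 hr and 15.2, 10.6, 8.42 and 9.81 FPKM in CON 24 hr cells. In WM cells Tk1 measured 6.93, 7.98, 8.35 and 4.22 FPKM at 0 hr and 3.31, 3.22, 5.81 and 3.34 FPKM at 24 hr. The values thus went up in CON cells and 3 of 4 WM 24 hr libraries were below all WM 0 hr libraries, with an interaction of -1.93 (SE 0.353, adjusted p = 0.0227). Rrm2 measured 7.44, 5.41, 6.80 and 5.71 FPKM in CON 24 hr and 2.83, 4.48, 1.64 and 2.21 FPKM in WM 24 hr cells and was not called between the origins. Dut, which keeps uracil out of DNA, had 24 hr means of 7.08 and 3.50 FPKM, and Tyms, the thymidylate synthase gene, 7.65 and 4.46 FPKM.

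Of the chromatin and DNA methylation genes 5 of 6 were higher at 24 hr in CON cells, 1 in WM cells, and 5 were lower in WM than in CON cells at 24 hr. Dnmt1, which copies DNA methylation onto the new strand, measured 4.60, 3.85 and 4.003 FPKM in CON 0 hr, 6.04, 2.68, 5.18, 4.09 and 2.76 FPKM in CON 6 hr and 12.5, 13.04, 11.1 and 10.8 FPKM in CON 24 hr cells. In WM cells Dnmt1 measured 4.49, 5.12, 4.69 and 4.56 FPKM at 0 hr, 4.55, 2.67, 2.69 and 3.603 FPKM at 6 hr and 5.36, 4.73, 6.06 and 5.82 FPKM at 24 hr. The CON 24 hr libraries lay close together and above all others, with a log2 difference of -0.99 between the origins (SE 0.185, adjusted p = 0.0027). Uhrf1, which guides Dnmt1 to hemimethylated DNA, measured 11.04, 8.16, 6.38 and 6.82 FPKM in CON 24 hr and 2.40, 1.87, 1.54 and 1.88 FPKM in WM 24 hr cells. Hells, a chromatin remodeller needed for DNA methylation, measured 2.22, 1.54 and 0.258 FPKM in CON 0 hr, 0.653, 1.45, 0.667, 0.508 and 0.443 FPKM in CON 6 hr and 10.9, 11.7, 8.30 and 21.6 FPKM in CON 24 hr cells. In WM cells Hells measured 0.898, 0.682, 0.723 and 0.978 FPKM at 0 hr, 1.87, 0.971, 1.60 and 1.28 FPKM at 6 hr and 3.70, 2.04, 2.27 and 3.31 FPKM at 24 hr. Hells was thus higher at 24 hr without overlap in both origins, with log2 differences of 2.62 in CON (SE 0.288, adjusted p = 9.54e-07) and 1.05 in WM cells (SE 0.266, adjusted p = 0.00692), and was lower in WM cells at 24 hr by -1.83 (SE 0.266, adjusted p = 0.00034). Chaf1a and Chaf1b, subunits of the factor that places histones behind the fork, had CON 24 hr means of 5.25 and 9.53 FPKM and WM 24 hr means of 1.61 and 3.47 FPKM.

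Tipin, which protects the fork with Timeless, was higher at 24 hr in CON cells and lower in WM than in CON cells, at 35.1, 35.9, 33.2 and 57.3 FPKM in CON 24 hr and 23.2, 23.6, 18.02 and 17.8 FPKM in WM 24 hr cells. All 3 of the cyclin E and E2F genes were higher at 24 hr in CON cells, 0 of the 3 in WM cells by limma (2 at an unadjusted p under 0.05), and 2 were lower in WM than in CON cells at 24 hr. Ccne1, a cyclin E gene, measured 0, 0 and 0.956 FPKM in CON 0 hr, 0.504, 0.801, 0.882, 2.57 and 1.66 FPKM in CON 6 hr and 6.46, 5.69, 3.25 and 4.61 FPKM in CON 24 hr cells. In WM cells Ccne1 measured 0, 0, 2.17 and 1.05 FPKM at 0 hr, 2.29, 0.631, 1.55 and 0.659 FPKM at 6 hr and 1.38, 2.60, 2.07 and 1.78 FPKM at 24 hr. Ccne1 was the lone member of these 3 without a call between the origins, although the CON 24 hr libraries were all above the WM 24 hr libraries. Its CON 0 hr values rest on 0, 0 and 12 reads. E2f1, an E2F activator and itself an E2F target, measured 5.28, 6.74, 4.78 and 3.06 FPKM in CON 24 hr and 2.31, 1.03, 2.79 and 1.76 FPKM in WM 24 hr cells, and the other cyclin E gene Ccne2 had means of 3.65 and 0.824 FPKM.

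Because many genes of this kind are switched on by E2F, the promoters of the members were searched for E2F words. A high share of words was thus likely from the choice of the list. Promoter sequence from RefSeq (GRCm38.p6), 250 bases before to 50 bases after the start of transcription, was matched for 35 of the 42 members. The words were TTTCCCGC, TTTCGCGC, TTTGCCGC and TTTGGCGC on both strands, and matches of words on opposite strands may overlap. At least 1 of these words was present in 15 of 35 members, 42.9%, against 2.6% of the 27025 genes of the table. The CCAAT word was present in 57.1% of the members and 41.1% of all genes, the words TTTGAA or TTCGAA in 17.1% and 21.7%, and TATAAA in 5.71% and 15.7%. The members with an E2F word were Cdc6, Cdt1, Dnmt1, Hells, Lig1, Mcm3, Mcm5, Mcm6, Mcm7, Orc1, Pola1, Pold1, Pole2, Rfc3 and Uhrf1. Of these 15, 14 were higher at 24 hr in CON cells, and of the 20 members without a word 19 were. Of the 15, 14 were lower in WM than in CON cells at 24 hr, and of the 20 without a word 10 were, with median log2 differences of -1.36 and -0.99, and no test was made of this difference. A word is a match of letters and not a measured binding site. The 250 bases before the start are shown for Mcm5 (chr8:75109259-75109508, plus strand), Mcm6 (chr1:128359706-128359955, minus strand) and Uhrf1 (chr17:56304063-56304312, plus strand), 3 members with large differences between the origins. Each is written 5′ to 3′ along its gene with the E2F words in capitals. Uhrf1 has 2 listed starts, of which the second is shown because it holds an E2F word and the first does not. In the counts above a gene had a word when any of its listed starts did.
Mcm5: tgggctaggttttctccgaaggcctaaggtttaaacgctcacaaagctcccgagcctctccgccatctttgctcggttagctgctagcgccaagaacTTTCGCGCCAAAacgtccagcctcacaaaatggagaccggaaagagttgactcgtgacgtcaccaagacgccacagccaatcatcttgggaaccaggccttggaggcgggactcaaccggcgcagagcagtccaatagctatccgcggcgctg
Mcm6: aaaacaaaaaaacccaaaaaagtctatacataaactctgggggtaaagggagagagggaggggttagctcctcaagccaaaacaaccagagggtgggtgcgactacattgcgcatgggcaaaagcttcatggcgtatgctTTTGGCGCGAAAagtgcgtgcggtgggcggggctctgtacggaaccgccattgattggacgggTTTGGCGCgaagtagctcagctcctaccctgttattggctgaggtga
Uhrf1: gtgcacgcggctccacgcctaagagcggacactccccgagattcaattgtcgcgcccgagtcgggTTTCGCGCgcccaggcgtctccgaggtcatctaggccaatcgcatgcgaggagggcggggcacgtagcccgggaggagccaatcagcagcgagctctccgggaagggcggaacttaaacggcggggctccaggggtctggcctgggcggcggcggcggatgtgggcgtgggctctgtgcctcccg
In Mcm5 the capitals are overlapping words that start 153 and 149 bases before the start of transcription, in Mcm6 overlapping words 110 and 106 bases before it and a word 47 bases before it, and in Uhrf1 a word 185 bases before it.

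Markers of other cell types moved with part of these groups. From 6 to 24 hr in CON cells 5 of the 8 neutrophil markers were called higher (median log2 difference 2.17), 5 of the 6 monocyte markers lower and 5 of the 8 microglia markers higher. From 0 to 24 hr 7 of the 8 microglia markers were called lower in each origin, with median log2 differences of -0.98 in CON and -0.92 in WM cells. The neutrophil medians were 1.01 in CON (0 called by limma, 1 at an unadjusted p under 0.05) and -0.08 in WM cells (1 lower). The monocyte medians were 0.99 in CON and -0.05 in WM cells, with 1 marker called higher in each. Between the origins at 24 hr the 8 neutrophil markers summed to 6328 to 15278 FPKM in CON 24 hr and 3144 to 7136 FPKM in WM 24 hr libraries, although 0 of the 8 were called between the origins by limma (3 at an unadjusted p under 0.05). The highest sums were those of CON 24 hr replicates 2 and 3, at 15278 and 10929 FPKM. The 6 monocyte markers summed to 448.5 to 579.5 FPKM in CON and 135.8 to 681.6 FPKM in WM 24 hr libraries, and the 8 microglia markers to 11837 to 20099 and 17541 to 22542 FPKM. The 6 border-associated macrophage markers summed to 49.6 to 68.2 FPKM in CON and 17.1 to 34.1 FPKM in WM 24 hr libraries without overlap, and 1 was called lower in WM cells. The 6 lymphocyte markers summed to 37.7 to 62.8 and 20.3 to 49.6 FPKM. Of the 5 lymphocyte markers tested 1 was called lower in WM cells, the B cell gene Cd79b with means of 29.2 and 6.60 FPKM, and the other 4 had positive differences past no threshold. Neural stem cell and neuroblast markers were low, with 3 of 8 listed, and summed to 3.52 to 7.09 FPKM in CON and 1.35 to 1.95 FPKM in WM 24 hr libraries without overlap, nearly all of it Cd24a. Oligodendrocyte precursor markers summed to 0.752 to 1.25 and 1.44 to 1.94 FPKM, and Cspg4 was called higher in WM cells. The part of these 4 lists in the member differences was not tested. Of the 30 members called lower in WM cells at 24 hr, 25 were called with the neutrophil sum as a covariate, 25 with the monocyte sum and 23 without CON 24 hr replicates 2 and 3. The rise in CON cells was called in 40, 37 and 38 members in these analyses and the interaction in 4, 2 and 2. Some calls between the origins at 24 hr were lost in most of 16 alternative analyses, E2f1 in 13 (adjusted p up to 0.346), Rrm1 in 11 (up to 0.134), Cdc45 in 10 (up to 0.101) and Rfc3 in 9 (up to 0.125). Fewer losses were those of Chaf1b, in 6 (up to 0.0757), Tipin in 5 (up to 0.0815), and Chaf1a and Cdt1 in 4 each (up to 0.101 and 0.0813). Cdc6, Pold1, Pola1 and Ccne2 were each lost in 1.

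**Figure D4:**
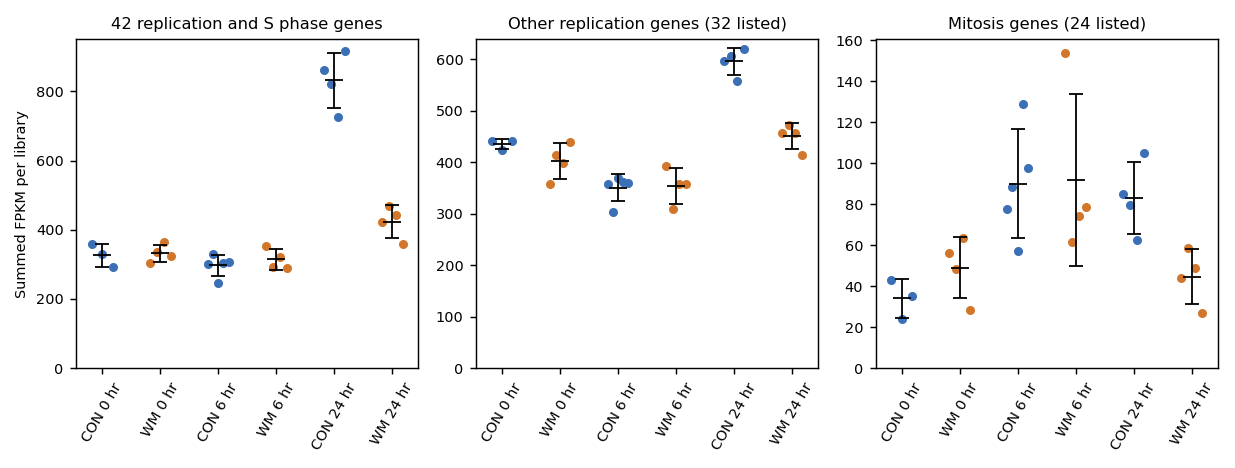
Summed FPKM in each sorted-cell library of the 42 replication and S phase genes, of 32 other replication genes and of 24 mitosis genes, by group. The 42-gene sum is 727.1 to 916.5 in CON 24 hr and 357.8 to 467.9 in WM 24 hr libraries, and the mitosis sum is high in both origins at 6 hr.

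Lists of neighbouring pathways were read beside the set. Of 30 other replication genes tested, 11 were higher and 1 was lower at 24 hr in CON cells, 4 were higher in WM cells, and 7 were lower in WM than in CON cells at 24 hr. Timeless, the fork protection partner of Tipin, had means of 1.06 FPKM in CON 0 hr and 14.8 FPKM in CON 24 hr cells, a log2 difference of 2.95 (adjusted p = 2.9e-07), and was lower in WM than in CON cells by -1.64. Wdhd1, Cdc7 and Dna2 followed in CON cells, with log2 differences of 2.21, 1.99 and 1.74. Of 21 mitosis genes tested, 9 were higher at 24 hr in CON cells and 0 in WM cells (1 of the 21 at an unadjusted p under 0.05), and 3 were lower in WM than in CON cells at 24 hr. Those 3 were Top2a (-1.40, adjusted p = 0.0145), Mki67 (-1.11, adjusted p = 0.0147) and Tpx2 (-0.97, adjusted p = 0.0228). At 6 hr 14 of the 21 mitosis genes were higher in CON cells, where 21.4% of all genes were, and 6 in WM cells, where 19.3% were, and their time course was not tested against that of the 42 members. The mitosis sum was 57.0 to 128.9 FPKM in CON 6 hr and 62.4 to 104.8 FPKM in CON 24 hr, against 23.97 to 42.99 FPKM in CON 0 hr libraries. In WM cells the mitosis sum was 61.4 to 153.8 FPKM at 6 hr and 27.0 to 58.8 FPKM at 24 hr.

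Of 31 cell cycle regulators tested, 8 were higher and 4 lower at 24 hr in CON cells, 3 were higher and 1 lower in WM cells, and 2 were higher in WM than in CON cells at 24 hr. Over all genes 9.23% were called lower at 24 hr in CON cells, 8.29% lower in WM cells, and 1.68% higher in WM than in CON cells. The 2 were Btg2, an antiproliferative gene, with means of 903.6 FPKM in WM and 373.3 FPKM in CON cells (log2 difference 1.27, adjusted p = 0.00175), and Cdkn1a, which encodes the cyclin-dependent kinase inhibitor p21, with means of 238.3 and 118.8 FPKM (log2 difference 0.94, adjusted p = 0.00391). Cdkn1c, another inhibitor of this class, fell from 0 to 24 hr by 2.003 on the log2 scale in CON and by 2.155 in WM cells. The interaction at 24 hr was called by limma for 0 genes of these 3 lists, where 8 other replication genes, 10 mitosis genes and 5 regulators had an unadjusted p under 0.05.

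GLOBAL repopulation, in which microglia had returned over 28 days without LPS, gave no called member. In the 3 repopulated against the 4 control libraries 0 of 40 members were called by limma, and 0% of all genes were. At an unadjusted p under 0.05 there were 8 members, the lowest adjusted p being 0.449, and 9.03% of all genes. The member sum was 239.4 to 318.4 FPKM in control and 254.7 to 264.7 FPKM in repopulated libraries, and 9 of 40 log2 differences were positive with a median of -0.18, against 0.01 over all genes. The mitosis genes summed to 42.8 to 88.3 FPKM in control and 33.2 to 42.1 FPKM in repopulated libraries. Pcna measured 53.1, 36.3, 47.0 and 55.1 FPKM in control and 61.2, 56.7 and 71.9 FPKM in repopulated libraries, without overlap (log2 difference 0.41, SE 0.167, adjusted p = 0.521). Mcm5 measured 9.82, 4.11, 4.33 and 5.66 FPKM in control and 3.78, 3.15 and 2.73 FPKM in repopulated libraries, which were all below the controls (log2 difference -0.66, SE 0.268, adjusted p = 0.508). Pcna and Mcm5 thus lay on opposite sides, neither past the threshold. Mcm6 measured 11.4, 4.69, 6.02 and 4.33 FPKM in control and 5.98, 5.20 and 3.67 FPKM in repopulated libraries. Rrm1 measured 5.46, 4.54, 4.28 and 4.02 against 4.80, 4.84 and 3.95 FPKM. These groups overlapped for both genes. Dnmt1 measured 10.1, 5.54, 7.17 and 7.58 against 7.79, 5.25 and 6.50 FPKM, and Ccne1 1.66, 2.55, 1.36 and 1.05 against 0.944, 1.71 and 1.32 FPKM, also with overlap. The lymphocyte markers summed to 31.6 to 40.9 FPKM in control and 15.58 to 21.04 FPKM in repopulated libraries without overlap, the border-associated macrophage markers to 28.6 to 51.9 and 16.9 to 29.4 FPKM, and the monocyte markers to 172.5 to 949.5 and 100.4 to 319.8 FPKM. The part of these 3 lists in the member values was not tested. The neutrophil markers summed to 2111 to 22702 FPKM in control and 1269 to 4587 FPKM in repopulated libraries, with the highest sums in control replicates 1 and 2, and 0 members were called by limma with this sum as a covariate or without these 2 libraries.

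In SVZ tissue, which holds neural stem cells, neuroblasts and oligodendrocyte precursors that divide in the adult, the replication genes were measured while microglia were lost. The 8 microglia markers summed to 229.0 to 320.4 FPKM in control, 13.3 to 16.98 FPKM after 14 days of PLX3397 and 22.8 to 32.4 FPKM after 5 days of recovery, and 7 of the 8 were called lower with PLX3397. No member was called by limma in any of the 3 comparisons: 0 of 34 with PLX3397 against control, where 1.26% of all genes were called, 0 in recovery against control, where 1.27% were, and 0 in recovery against PLX3397, where 0.325% were. At an unadjusted p under 0.05 there were 0, 4 and 2 members, against 6.12%, 16.6% and 16.5% of all genes, with lowest adjusted p of 0.871, 0.176 and 0.271. The log2 differences of the 34 members ran from -0.25 to 0.18 with PLX3397 and from -0.28 to 0.31 in recovery, both against control. The member sum was 207.9 to 227.0 FPKM in control, 214.8 to 231.9 FPKM with PLX3397 and 213.9 to 253.1 FPKM in recovery. Of the 8 neural stem cell and neuroblast markers 0 were called by limma with PLX3397 (0 at an unadjusted p under 0.05), and of the 6 oligodendrocyte precursor markers 2 were called lower. The erythrocyte markers summed to 32.4 to 79.3 FPKM in control and 91.3 to 335.9 FPKM in recovery, and their part in the member values was not tested.

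The 6 members given in each table were close to each other in the SVZ groups. Pcna measured 17.8, 15.8, 22.8, 20.5 and 18.8 FPKM in control, 18.4, 21.9, 20.5, 20.7 and 24.6 FPKM with PLX3397 and 19.02, 18.5, 20.3, 22.97 and 26.7 FPKM in recovery. Mcm5 measured 2.77, 3.07, 3.41, 2.57 and 3.25 FPKM in control, 3.02, 2.92, 3.09, 2.75 and 3.55 FPKM with PLX3397 and 2.498, 2.91, 3.29, 2.69 and 3.48 FPKM in recovery. The 3 groups overlapped for both genes. Mcm6 measured 4.46, 3.17, 4.02, 5.47 and 3.62 FPKM in control, 5.71, 4.29, 3.22, 4.94 and 4.69 FPKM with PLX3397 and 5.25, 4.94, 3.88, 4.99 and 5.24 FPKM in recovery. Rrm1 measured 7.61, 6.78, 7.22, 6.69 and 6.76 FPKM in control, 8.16, 6.86, 6.15, 8.14 and 6.18 FPKM with PLX3397 and 6.79, 6.44, 5.77, 6.44 and 5.93 FPKM in recovery. For Mcm6 all groups overlapped, and for Rrm1 4 of 5 recovery libraries were below the lowest control library. Dnmt1 measured 6.30, 7.91, 7.33, 9.30 and 7.60 FPKM in control, 6.79, 7.27, 6.95, 6.75 and 6.85 FPKM with PLX3397 and 6.75, 7.41, 7.70, 5.41 and 6.11 FPKM in recovery. Ccne1 measured 6.18, 5.81, 5.63, 9.79 and 8.06 FPKM in control, 7.22, 7.76, 7.65, 7.65 and 10.1 FPKM with PLX3397 and 10.2, 8.38, 8.21, 7.87 and 8.23 FPKM in recovery. The ranges of both again overlapped between the groups.

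**Figure D5:**
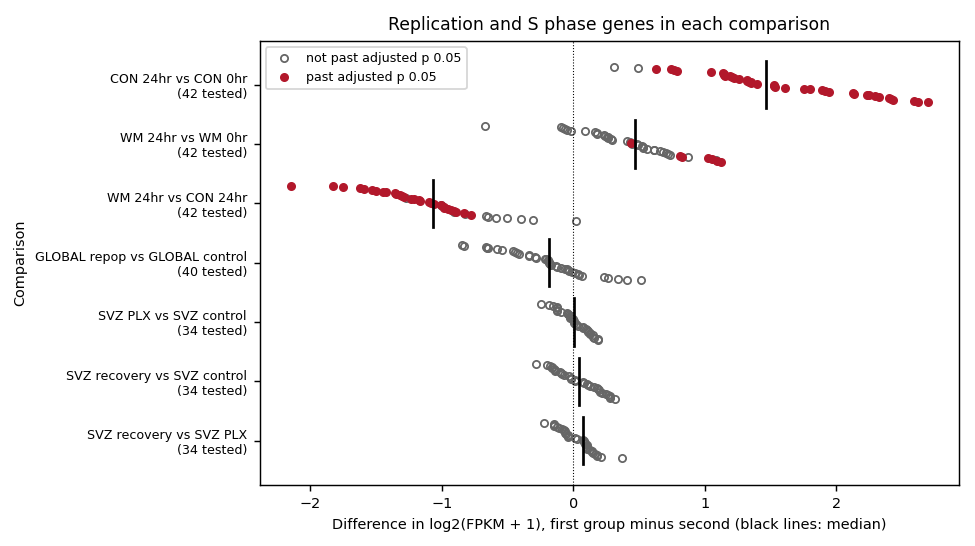
Log2 differences of the tested replication and S phase genes in 7 comparisons, 1 point a gene, red where the limma adjusted p is under 0.05, with a black line at the median. Each row is a comparison. Red points lie to the right in the CON 24 hr against 0 hr row (40 of 42). They lie to the left in the WM against CON row at 24 hr (30 of 42), and no point is red in the GLOBAL and SVZ rows.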

How the data were processed

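The unit of all 3 tables is FPKM per gene and library, the form in which the authors deposited their values. Per the study's methods, Smart-seq2 cDNA was tagged with Nextera and sequenced in pairs, and the submitters' processing notes name STAR, featureCounts, edgeR, limma and the build mm10, without versions. The labels describe another library kit, so the chemistry of each table is uncertain. The tables were normalised separately and were not tested against each other. Each gene was tested on log2(FPKM + 1), for genes of FPKM at least 1 in at least 3 libraries, with limma 3.58.1 in R 4.3.3 (trend, all groups of a table in 1 fit), and p-values were adjusted by Benjamini-Hochberg over all genes tested. A fold on this scale understates the change of low genes. Folds of means are of FPKM. Reads per library were recovered from steps of low FPKM values. Intervals of counting error were not computed. The 42 genes and all lists were chosen with earlier results of these data known. All members could be named, with every library's value for the called members of smallest adjusted p and for Pcna, Mcm5, Mcm6, Rrm1, Dnmt1 and Ccne1, and up to 4 called genes of each context list. Values of further members were added after they were seen. No column went unmapped (0). The test was checked on simulated data with normal noise and differences larger than most of those of the members. That check does not cover smaller differences or genes of low FPKM. Alternatives were a pseudocount of 0.1, no limit on FPKM (or 0.5 for the counts of members), quantile normalisation, fits of only the groups compared, a replicate block, leaving out each library, and, chosen after seeing the data, marker covariates and sets of libraries left out. Python 3.11.15 made the tables and matplotlib 3.10.9 the figures.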

Additional observations from a re-analysis of the deposited data

Results flagged for a closer look

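The groups of 4 or 5 libraries were examined for 12 members in the LPS table, for 6 in each other table and for the member sums. In 7 of these 93 groups 1 library lay far from the rest by Dixon's test, and chance alone gives about 1 in 20. In CON 6 hr cells, replicate 2 had 4.27 FPKM of Lig1 against 1.18 to 1.63 FPKM in the others, and 1.45 FPKM of Hells against 0.443 to 0.667 FPKM. Gins2 measured 1.11 FPKM in CON 6 hr replicate 3 against 2.69 to 3.31 FPKM. Pcna measured 54.1 FPKM in WM 6 hr replicate 2 against 50.9 to 51.1 FPKM. In SVZ tissue, Mcm6 measured 3.88 FPKM in recovery replicate 3 against 4.94 to 5.25 FPKM. Ccne1 measured 10.1 FPKM in PLX3397 replicate 5 against 7.22 to 7.76 FPKM, and 10.2 FPKM in recovery replicate 1 against 7.87 to 8.38 FPKM.

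The change from 0 to 24 hr after LPS differed between WM and CON cells in 4 of the 42 members, and in 11 of all 12684 genes tested. The interactions were -2.41 for Pole2, -2.18 for Lig1, -2.16 for Gmnn and -1.93 for Tk1 on the log2 scale. Over 23 alternative analyses Lig1 and Pole2 were called in all (adjusted p up to 0.0459), Tk1 in 13 (up to 0.0750) and Gmnn in 10 (up to 0.116).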

How the results depend on the processing

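The count of members called lower in WM than in CON cells at 24 hr was 23 to 28 with 1 library left out, and that of members higher at 24 hr in CON cells 38 to 40 against 0 hr and 37 to 40 against 6 hr. Of 2321 values of named genes under alternatives, 2103 kept their call and direction, 212 lost the call and 6 changed sign. The call of 1 member between the origins at 0 hr became 0 with a replicate block, 0 with only the groups compared and 0 to 1 with 1 library left out. For WM 24 against 6 hr, 14 members were called with only the groups compared, 3 with the neutrophil and 2 with the monocyte covariate, and 3 to 9 with 1 library left out, 3 without WM 24 hr replicate 3, 4 without WM 6 hr replicate 2 or 3 and 5 without WM 24 hr replicate 1. For WM 24 against 0 hr the count was 6 to 11, with 11 without WM 0 hr replicate 3. The interaction at 24 hr was called in 2 to 6 members, 2 without WM 0 hr replicate 2, CON 24 hr replicate 1 or WM 24 hr replicate 1, 2 or 4, in 2 with the monocyte covariate and in 2 without the 2 CON 24 hr libraries with the most neutrophil marker. At 6 hr, 3 members were called in WM cells with either covariate (3 and 1 of them among the original 6 with the neutrophil and monocyte sums), and 4 in CON cells with the monocyte covariate. Pcna, WM against CON at 24 hr, ran from -0.044 to 0.11 with 1 library left out, -0.03 without CON 24 hr replicate 2, -0.01 without CON 24 hr replicate 1, and was -0.063 without the 2 CON 24 hr libraries. Rrm2 at 6 hr became -0.18 in CON and -0.17 in WM cells with the monocyte covariate. The cause was not tested for any of these. Since the monocyte sums at 6 hr did not overlap those at 0 or 24 hr, fits with that covariate can hardly separate it from time.

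The deviations of same-numbered libraries correlated over 0.1 in 7 of 55 pairs in the LPS table, 2 of 3 in the GLOBAL table and 5 of 15 in the SVZ table (r up to 0.486). In no table did every pair do so, and the numbers were not taken to pair the libraries. With the number as a replicate block, 29 members were called lower in WM than in CON cells at 24 hr (27 shared with the fit without it), 40 were called higher at 24 hr in CON cells, and 3 had an interaction at 24 hr. At low FPKM depth limits the values: Hells rests on 7 to 28 reads in the CON 6 hr libraries.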
